A study of Arabidopsis thaliana with 22 samples.

Results

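The transcript difference between leaves of ost1-2 and wild type (WT) that had received no ABA was measured on 5 of the 22 Affymetrix Arabidopsis Gene 1.0 ST arrays of the study, namely all 2 ost1-2 mock arrays and all 3 WT mock arrays. The study asked whether PAP, a metabolite that accumulates when the phosphatase SAL1 is lost, restores ABA responses in mutants that are insensitive to ABA. ost1-2 is the parent mutant without that restoration, and its state before ABA is the starting point for its ABA response. The other 17 arrays were ost1-2 ABA (2 arrays) and, with 3 arrays each, WT ABA, ost1-2 sal1-8 and sal1-8 in mock and ABA.

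ost1-2 carries its mutation in the Ler accession. The WT label is a Col-0 x Ler F1 hybrid. sal1-8 is in Col-0, and ost1-2 sal1-8 descends from a cross of both mutants and so mixes the 2 accessions. All were 30 days old and grown in soil. Mock plants of both groups were sprayed with the ethanol control and ABA plants with 20 µM ABA in a closed box under low light. The study's methods and the sample labels give 45 min of treatment, and the treatment protocol deposited with them gives 2 h. The mutation, the Ler genome and a Ler sequence that no longer matches an array probe cannot be told apart in ost1-2 against WT. The study describes a leaf per sample and biological triplicates, and only 2 arrays per treatment carry the ost1-2 label. If the arrays of a group are not separate plants, p-values measure a technical spread.

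OST1 is the SnRK2 protein kinase that ABA releases from inhibition by clade A protein phosphatases such as ABI1 and PP2CA. In guard cells it activates anion channels and so closes stomata, and its loss leaves stomata open and plants prone to wilting. SnRK2 kinases also phosphorylate bZIP factors, which switch on dehydrins, late embryogenesis abundant proteins and further ABA-induced genes. Wax and cutin genes are induced by ABA and drought through MYB96.

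Values are log2 intensities, on which a difference of 1 is a 2-fold change, and levels of different genes cannot be compared. Array medians were 4.66 on both ost1-2 mock arrays and 4.6 to 4.83 on WT mock arrays. Over all 38408 probe sets, the mean correlation of an array with the others of its group was 0.979 in ost1-2 mock, against 0.959 to 0.965 in WT mock. It was 0.966 to 0.972 in WT ABA and at most 0.982 in any group. Each array is named here by a letter from A to G that stands for a stretch of adjoining sample numbers in the titles. The ost1-2 mock arrays were A and C and the WT mock arrays were A, C and F. RCA, the Rubisco activase of mesophyll chloroplasts, averaged 11.9 in ost1-2 and 12.0 in WT. It is the only 1 of 11 mesophyll markers that the array annotation names, and no trichome, xylem or pollen marker is named. OST1 and SAL1 were not analysed here, because no probe set is named for them in the sources used.

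WT arrays did not stand together at genes that separate the parents. Such genes were taken from arrays outside the mock comparison, where both ost1-2 ABA arrays lay more than 2 log2 units above or below all 6 sal1-8 arrays. There were 32 such nuclear genes higher and 180 lower in ost1-2. WT arrays lay on both sides, within 0.25 of the gap from the ost1-2 level on the one and from the sal1-8 level on the other, at 12 and 35 of them. At 3 and 11 genes the split ran through the WT mock arrays. AOP3, a dioxygenase that modifies the side chain of aliphatic glucosinolates, had 11.46 and 10.91 in ost1-2 mock, against 9.99, 3.80 and 8.09 on WT mock arrays A, C and F, and averaged 3.51 in sal1-8 mock. AT1G14250 averaged 2.07 in ost1-2 ABA, against 2.09, 8.12 and 8.71 on WT mock A, C and F. WT ABA G lay near ost1-2 at every split gene of chromosome 1 from AT1G47271 to AT1G70810, among them AT1G58602, AT1G61190, AT1G63880 and AT1G66100, and near sal1-8 at the next split gene beyond AT1G70810. At the last split gene before AT1G47271, SBT3.3, it lay between both levels. Separating genes at which WT arrays did not lie on both sides are left out of such a run, so that the choice of genes favours it. An F1 hybrid carries a copy from each parent at every nuclear locus, so that its plants should not differ in genotype. Whether plants of the WT group did differ was not tested.

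**Figure D1:**
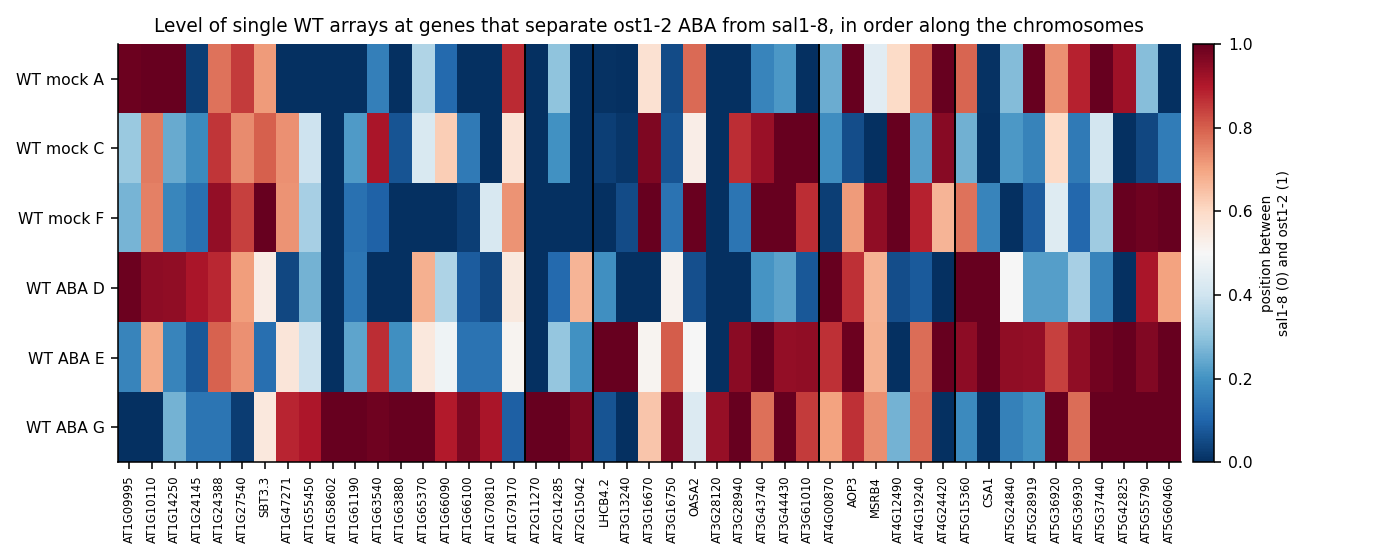
Level of each WT array (rows) at the 47 genes that separate ost1-2 ABA from sal1-8 and at which WT arrays lie on both sides (columns, in order along chromosomes 1 to 5, separated by black lines). Colour gives the position between the sal1-8 mean (0, blue) and the ost1-2 ABA mean (1, red), with values beyond the ends drawn at the ends. Neighbouring genes often share a colour within an array, as on WT ABA G from AT1G47271 to AT1G70810. Separating genes without WT arrays on both sides are not drawn, which favours such runs.

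A transcript was called where limma's adjusted p was under 0.05 and the fold change above 1.5. Of 13843 tested probe sets, 266 (1.92%) were called between ost1-2 mock and WT mock, 113 higher (0.816%) and 153 lower (1.11%) in ost1-2. At an unadjusted p under 0.05 there were 1833, of which 1024 were higher. All 266 had ost1-2 arrays beyond all WT arrays, as had 15.9% of all probe sets above and 12.0% below. The same sign within run A and within run C follows from this and is no further check. Falls were the larger changes: 45 falls and 22 rises exceeded log2 2, and 9 falls but no rise exceeded log2 4. The median called fall was -1.48 and the median called rise 1.37, against 0.018 over all tested. The count rested on the small ost1-2 group, being 71 without ost1-2 mock A and 90 without ost1-2 mock C, which each leave 1 array that is assumed to vary like the other groups. Rises numbered 22 without ost1-2 mock A, 40 without ost1-2 mock C and 68 without WT mock F, and falls 49 and 50 without the 2 ost1-2 arrays.

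**Figure D2:**
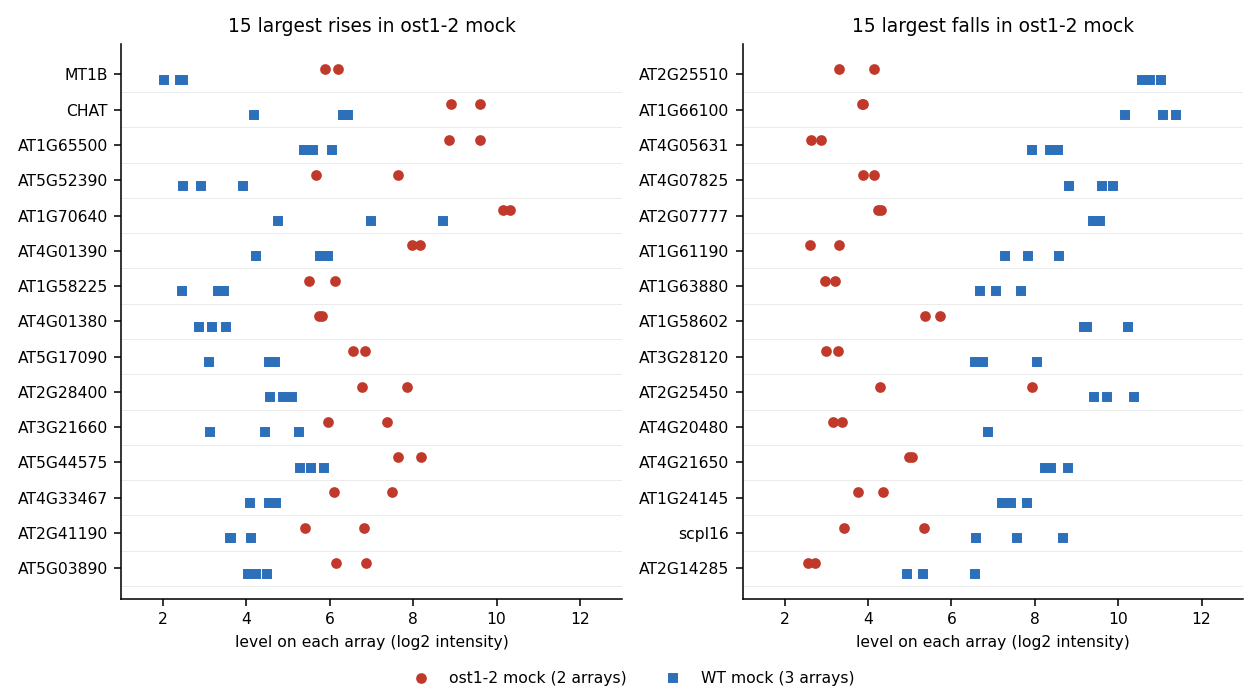
Level on each array (log2 intensity) of the 15 largest called rises (left) and falls (right), ordered by size, with ost1-2 mock as red circles and WT mock as blue squares. The groups do not overlap at any gene, which the choice of genes required. The widest gap is that of AT2G25510, at 3.31 and 4.14 in ost1-2 and 10.58 to 11.04 in WT.

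Several of the largest falls went to levels below the median of the ost1-2 arrays. AT2G25510 had 3.31 and 4.14 on the ost1-2 mock arrays, against 11.04, 10.58 and 10.76 on the WT mock arrays. It was thus far above the array median on every WT array and below the median of 4.66 on both ost1-2 arrays. The difference was -7.07 ± 0.44 (SE from limma, adjusted p = 1.8e-08). AT2G07777, for which 2 probe sets were called (-5.20 and -2.17), had 4.25 and 4.31 in ost1-2 on the first, against 9.48, 9.57 and 9.41 in WT (SE 0.22, adjusted p = 3.2e-11). AT4G07825 had 3.89 and 4.14 in ost1-2, against 8.82, 9.87 and 9.62 in WT (-5.42 ± 0.36). AT4G05631 (-5.54 ± 0.78), AT4G20480 (-3.6 ± 0.24), AT4G21650 (-3.46 ± 0.51) and AT1G34200 (-2.93 ± 0.26), the last of which lies outside the 15 and was chosen after its values were seen, likewise had no ost1-2 array near a WT array. The sources used here give no role for these genes.

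Both other genotypes were measured in mock too. In ost1-2 sal1-8, AT2G25510 averaged 2.89, AT4G05631 2.47, AT4G07825 3.61, AT2G07777 3.76 and AT4G20480 3.33, all at the low level of ost1-2. In sal1-8 the same genes averaged 9.75, 6.87, 10.7, 9.38 and 7.78. Over the 153 falls, the median level was 4.26 in ost1-2, 4.69 in ost1-2 sal1-8, 5.99 in sal1-8 and 5.96 in WT. These differences share the ost1-2 arrays with the main comparison. Of the 15 largest falls, 7 stayed called without ost1-2 mock A, 7 without ost1-2 mock C and 13 or 14 without a WT mock array. AT2G25450 had 7.93 and 4.28 on ost1-2 mock A and C, against 9.73, 10.38 and 9.41 in WT (-3.74 ± 0.93, adjusted p = 0.043). Without ost1-2 mock C its difference was -1.91 (adjusted p = 0.51), and its call was lost without any of the WT mock arrays too (-3.47 to -3.95).

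TGG2 and LHCB4.2 fell in ost1-2 mock but stood at or above the WT level in ost1-2 sal1-8. TGG2, a myrosinase that cleaves glucosinolates, had 5.72 and 6.47 in ost1-2, against 11.61, 12.07 and 12.10 in WT (-5.83 ± 1.11, adjusted p = 0.0081, from a second fit over the whole array). It averaged 12.5 in ost1-2 sal1-8 and 12.7 in sal1-8. LHCB4.2, a light-harvesting protein of photosystem II, had 7.32 and 6.61 in ost1-2, against 9.53, 9.47 and 9.64 in WT (-2.59 ± 0.46, adjusted p = 0.0048), and 9.86 in ost1-2 sal1-8. CSA1, named constitutive shade-avoidance1, had 3.87 and 3.01 in ost1-2, against 5.91, 6.22 and 5.48 in WT (-2.43 ± 0.57), and its neighbour AT5G17900 fell by 1.90 on the log2 scale. These groups of arrays do not overlap either. The levels of CSA1 and AT5G17900 in ost1-2 sal1-8 are not given here. TBL45, a trichome birefringence-like protein (-1.96 ± 0.38), ACT11, an actin (-1.79 ± 0.37), and AT2G41990 (-2.68 ± 0.46) were also at or above 6.97 in ost1-2 sal1-8, against 5.61 to 7.29, 3.96 to 4.49 and 3.16 to 4.58 on the ost1-2 arrays. An ost1-2 array of TBL45 lay above 6.97, and TBL45, ACT11 and AT2G41990 in ost1-2 sal1-8 are not set against WT here. CSA1, AT5G17900, TBL45, ACT11 and AT2G41990 were chosen after their values were seen. Calls were lost without ost1-2 mock A for TBL45 (-1.12, adjusted p = 0.28) and AT2G41990 (-1.97), without ost1-2 mock C for LHCB4.2 (-2.23) and without either of these arrays for TGG2 (-5.45 and -6.21) and ACT11 (-2.06 and -1.52, also -1.47 without WT mock F). CSA1 stayed called only without WT mock F and AT5G17900 only without WT mock A, over ranges of -2.86 to -2.01 and -2.28 to -1.56.

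Further falls were of single genes. PRK, the phosphoribulokinase of the Calvin cycle, had 8.72 and 8.35 in ost1-2, against 9.50, 9.80 and 9.62 in WT (-1.11 ± 0.26, adjusted p = 0.028). Of 11 named photosynthesis and chlorophyll genes tested, PRK and LHCB4.2 fell and none rose, with a median of -0.08. Over all probe sets 1.11% were called lower and the median was 0.018. LHCB4.1, PSAN and SBPASE differed by 0.03, 0.00 and -0.08. WRKY29, a defence transcription factor, had 5.18 and 5.04 in ost1-2, against 6.47, 6.49 and 6.18 in WT (-1.27 ± 0.27, adjusted p = 0.015). scpl16, a serine carboxypeptidase-like protein, had 3.43 and 5.35 in ost1-2, against 8.68, 6.58 and 7.59 in WT (-3.23 ± 0.64, adjusted p = 0.010). ECS1 fell by 1.23 on the log2 scale, to 10.50 and 10.67 in ost1-2, against 11.65 to 11.95 in WT, and averaged 7.86 in ost1-2 sal1-8. It was chosen after its values were seen. The call of scpl16 was lost without ost1-2 mock A (-2.27) and that of WRKY29 without either ost1-2 array (-1.34 and -1.20). PRK stayed called only without WT mock A (range -1.29 to -0.92), and ECS1 lost its call without any 1 of the 5 mock arrays (-1.32 to -1.15).

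Among the rises, MT1B, a metallothionein, stood furthest from its spread. It had 6.20 and 5.89 in ost1-2, against 2.02, 2.49 and 2.4 in WT (3.74 ± 0.27, adjusted p = 1.1e-07), and averaged 1.66 in ost1-2 sal1-8 and 1.52 in sal1-8. CHAT, which acetylates hexenol in the synthesis of green leaf volatiles, had 9.61 and 8.90 in ost1-2, against 6.44, 6.32 and 4.19 in WT (3.61 ± 0.66, adjusted p = 0.0060). The spread within WT was wide here, with array F the lowest. AT1G65500 had 8.87 and 9.61 in ost1-2, against 5.60, 5.38 and 6.05 in WT (3.56 ± 0.69), and AT1G65490, chosen after its values were seen as its neighbour, rose by 2.05. The neighbours AT4G01380 and AT4G01390 rose by 2.59 ± 0.30 and 2.74 ± 0.41. AT5G17090 had 6.85 and 6.56 in ost1-2, against 4.70, 3.1 and 4.54 in WT (2.59 ± 0.48). Both ost1-2 arrays were highest at each of these genes. Of the 15 largest rises, 5 stayed called without ost1-2 mock A, 7 without ost1-2 mock C, 7 without WT mock F and 11 and 12 without WT mock A and C. MT1B and AT4G01380 did in every case. CHAT had 3.25 without ost1-2 mock A (adjusted p = 0.12), and AT5G17090 2.44 and 2.74 without ost1-2 mock A and C (adjusted p = 0.11 and 0.052). AT1G65500 had 3.93 and 3.19 without ost1-2 mock A and C (adjusted p = 0.061 and 0.12). AT1G65490 stayed called only without WT mock C (range 1.66 to 2.43).

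Some ABA-induced genes were higher in ost1-2 before ABA was given. LTI30, a dehydrin, had 4.91 and 5.24 in ost1-2, against 3.13, 3.27 and 2.84 in WT (2.00 ± 0.32, adjusted p = 0.0021). COR15B, a chloroplast protein of the cold response, had 9.21 and 9.48 in ost1-2, against 7.29, 8.72 and 7.71 in WT (1.44 ± 0.31, adjusted p = 0.019). COR47, a further dehydrin, had 10.11 and 9.64 in ost1-2, against 8.75, 8.95 and 8.87 in WT and lay just outside the threshold (1.02 ± 0.26, adjusted p = 0.0502). Of the 8 ABA and dehydration markers that the array annotation names, LTI30 and COR15B rose and none fell. Over all probe sets 0.816% were called higher. The median of the 8 was 0.91, against 0.018 over all probe sets. The other members had 0.95 (KIN2), 0.86 (COR15A), 0.53 (HIS1-3), 0.46 (KIN1) and -0.01 (LEA18). The mean of the 8 genes, relative to the WT mock mean, was 0.86 and 0.95 on the ost1-2 arrays, against -0.20, 0.38 and -0.18 on WT mock arrays A, C and F. WT mock C thus lay between its own group and ost1-2. LTI30 stayed called without each array, whereas COR15B did not without ost1-2 mock A (1.57), ost1-2 mock C (1.3), WT mock A (1.13) or WT mock F (1.34).

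Further ABA genes are named only by the study's table of genes that respond to ABA in WT, which was held here in part. They were read from a second fit over the whole array, in which 446 of 16357 probe sets were called (2.73%), 222 higher (1.36%) and 224 lower (1.37%). The table was picked on the ABA response of WT, which uses the same WT mock arrays, so that a WT mock value that is low by chance favours a rise in both, and these genes are no independent evidence of direction. All 490 tested genes that only this table names had a median of 0.37, with 47 called higher and 9 lower. RD20, a caleosin of lipid droplets, had 10.59 and 9.32 in ost1-2, against 7.41, 7.88 and 6.58 in WT (2.66 ± 0.49, adjusted p = 0.0064). RD22 (0.95), AFP1, which binds the factor ABI5 (1.55), and LTP3, a lipid transfer protein (3.64), also rose, 4 of 15 such ABA markers, and 0 fell. Of 8 such genes of ABA perception and early signalling, AFP1 and PP2CA rose and none fell. PP2CA had 9.65 and 9.29 in ost1-2, against 8.26, 8.06 and 7.67 in WT (1.47 ± 0.32, adjusted p = 0.021), and ABI1 had 1.09 ± 0.32 (adjusted p = 0.086). NCED3, which catalyses the committed step of ABA synthesis, had 7.57 and 8.13 in ost1-2, against 6.19, 7.36 and 5.07 in WT (1.64 ± 0.54, adjusted p = 0.13), and was called without WT mock C (2.22, adjusted p = 0.026). Calls were lost without ost1-2 mock A for RD20 (2.03), PP2CA (1.3), AFP1 (1.16) and RD22 (1.04), without ost1-2 mock C for PP2CA (1.65), AFP1 (1.94) and RD22 (0.86), without WT mock F for PP2CA (1.31), AFP1 (1.43) and RD22 (0.70), and without WT mock A for AFP1 (1.60).

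Of 11 table genes of cuticle, wax and lipid transfer, 7 were called higher and none lower, against 47 higher and 9 lower of all 490 table genes. These genes too were picked with the same WT mock arrays, and LTP3 is also counted among the ABA markers. CER1, which with CER3 makes the alkanes of leaf wax, had 10.49 and 10.73 in ost1-2, against 9.0, 8.51 and 7.34 in WT (2.32 ± 0.38, adjusted p = 0.0024). KCS2, an elongase of very long chain fatty acids (1.97), MYB96 (1.35), CER3 (1.11), LACS2, an acyl-CoA synthetase of cutin synthesis (1.05), and the exporter ABCG11 (0.67) rose as well, besides LTP3. LTP2 had -0.12. Of 3 cuticle genes that the annotation names, WSD1, which makes wax esters, rose (6.06 and 5.65 in ost1-2, against 4.56, 4.63 and 3.08 in WT, 1.76 ± 0.44, adjusted p = 0.041), while SHN2 had 0.69 and AT4G13840 -0.48. In WT, array F was the lowest at CER1, KCS2, CER3, MYB96, LTP3 and WSD1. CER1 stayed called without each mock array. KCS2, CER3, MYB96, LTP3 and WSD1 were not called without WT mock F (1.33, 0.81, 1.08, 2.59 and 1.26) or without either ost1-2 array, and MYB96 not without WT mock A (1.38). LACS2 was called only without ost1-2 mock C and WT mock C (range 0.78 to 1.33) and ABCG11 lost its call without any 1 of the 5 (0.64 to 0.71). Of 20 called table genes compared, 2 stayed called without ost1-2 mock A, 4 without ost1-2 mock C, 11 without WT mock A, 14 without WT mock C, 5 without WT mock F and 13 to 20 without an ABA array.

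**Figure D3:**
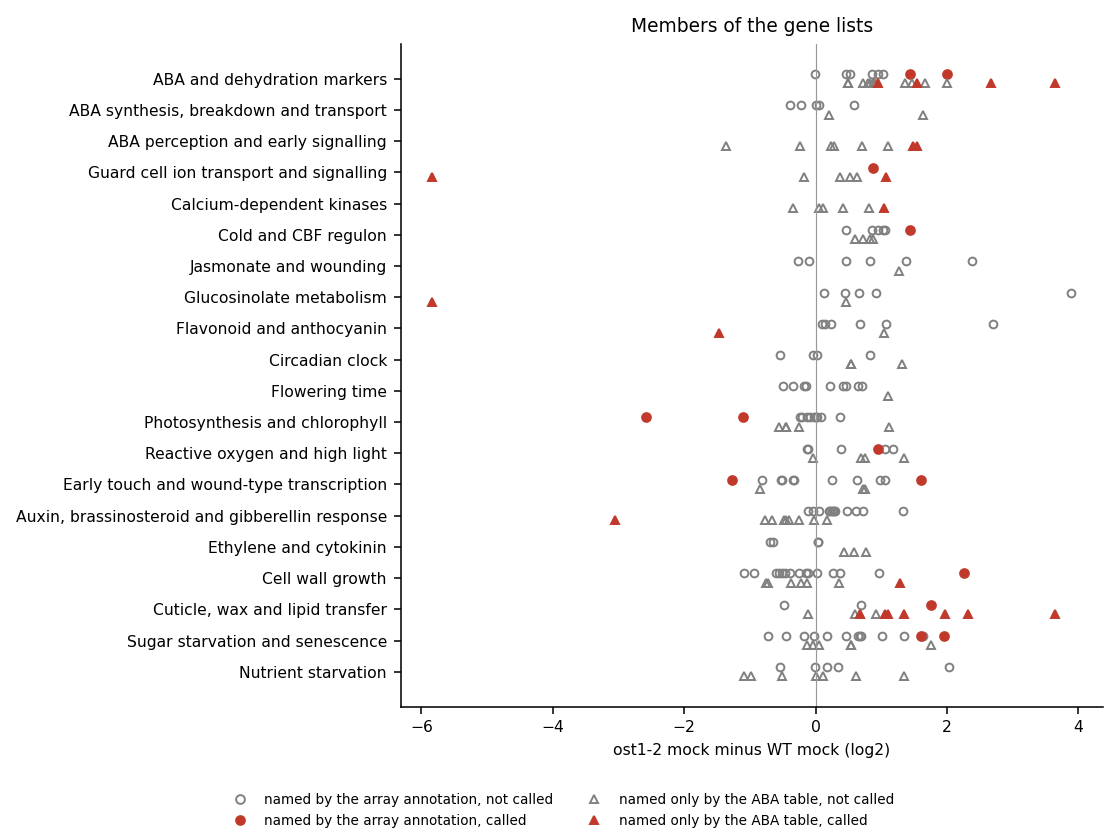
Log2 difference, ost1-2 mock minus WT mock, of each member of the 20 functional gene lists that have at least 5 tested genes. Circles are genes that the array annotation names, triangles are genes named only by the table of WT ABA-responsive genes, and red filled symbols were called. Members of the ABA, cold and wax lists lie mostly right of 0, up to 3.64 for LTP3, and the largest fall is TGG2 at -5.83.

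The guard cell lists held called rises and 1 called fall, TGG2. GORK, CYP86A2 and TGG2 are table genes, picked with the same WT mock arrays, so that their direction is no independent evidence. BLUS1 (AT4G14480), a kinase that opens stomata in blue light, had 7.12 and 7.15 in ost1-2, against 6.26, 6.31 and 6.21 in WT (0.87 ± 0.20, adjusted p = 0.029). GORK, the potassium channel through which guard cells lose potassium, rose by 1.07 (adjusted p = 0.048) among the 6 table genes, TGG2 fell, and the other 4 were RBOH F (0.53), NHX1 (0.63), SLAH3 (0.37) and HA2 (-0.18). CYP86A2, a cutin hydroxylase listed as a guard cell marker, rose by 0.90. The stomatal lineage factors SPCH, FMA and MUTE, which the annotation names, had 0.81, 0.20 and -0.22 and none was called. After ABA, all 3 were called higher in ost1-2 than in WT, with a median difference of 1.88. Fewer cells of a type and less RNA per cell cannot be told apart in leaf RNA. Without any 1 of the 5 mock arrays neither BLUS1 (0.85 to 0.90), GORK (0.81 to 1.33) nor CYP86A2 (0.74 to 1.05) was called.

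Transport and wall genes added single rises. SWEET4, a sugar transporter, had 8.84 and 8.36 in ost1-2, against 6.24, 6.55 and 7.18 in WT (1.95 ± 0.35, adjusted p = 0.0047). EXPA16, an expansin that loosens cell walls, had 9.10 and 8.55 in ost1-2, against 6.72, 5.24 and 7.75 in WT (2.25 ± 0.46). WRKY6, a transcription factor of senescence and phosphate supply, had 8.66 and 8.84 in ost1-2, against 7.43, 6.64 and 7.35 in WT (1.61 ± 0.36). Among named members, sugar starvation and senescence counted 2 of 14 higher and 0 lower (median 0.66). Cell wall growth counted 1 of 15 higher and 0 lower (median -0.25). Over all probe sets 0.816% were called higher and 1.11% lower, with a median of 0.018. The aquaporin PIP1;4, a table gene, rose by 1.69, but by 1.04 without ost1-2 mock A (adjusted p = 0.34). 2 members of the nitrate and peptide transporter family, AT3G21670 (NPF6.4) and AT1G72125 (NPF5.13), rose by 1.98 and 2.19 and were chosen after their values were seen. AT3G21670 had 1.1 without ost1-2 mock A (adjusted p = 0.60) and was not called without WT mock A or F (2.02 and 1.73), nor was AT1G72125 without ost1-2 mock A, WT mock C or WT mock F (1.60, 1.96 and 2.27). SWEET4, EXPA16 and WRKY6 were not called without ost1-2 mock A (1.71, 1.98 and 1.7), EXPA16 and WRKY6 also not without ost1-2 mock C (2.53 and 1.52), and WRKY6 not without WT mock C (1.36).

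CRT1b, ATERDJ3B, DER1 and GFAT rose as well and were chosen after their values were seen. The list of heat shock and protein folding had no call among its 2 named members (0.083 and 0.44) and 1 rise, PDIL1-3, among its 2 table genes (0.94 and 1.17). CRT1b, a calreticulin, had 9.0 and 9.60 in ost1-2, against 8.16, 8.06 and 8.38 in WT (1.1 ± 0.22, adjusted p = 0.011). The cochaperone ATERDJ3B had 7.55 and 8.37 in ost1-2, against 6.84, 6.66 and 6.85 in WT (1.18 ± 0.23). DER1, a derlin of protein export for degradation, rose by 0.60 and PDIL1-3, a disulfide isomerase among the table genes, by 1.17. Array C was the higher of the ost1-2 arrays at all 4 genes. Without it none was called (0.79, 0.77, 0.37 and 0.94), and DER1 was called only without ost1-2 mock A. GFAT, which feeds amino sugar synthesis, rose by 1.48 ± 0.26 and likewise lost its call without ost1-2 mock C (1.11).

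TRY, an inhibitor of trichome formation, had 7.53 and 6.85 in ost1-2, against 5.51, 5.34 and 5.53 in WT (1.73 ± 0.42, adjusted p = 0.037), and averaged 6.77 in ost1-2 sal1-8. VTC4, a phosphatase of ascorbate synthesis, had 9.04 and 8.68 in ost1-2, against 8.16, 7.77 and 7.81 in WT (0.95 ± 0.23, adjusted p = 0.040). It was the only call among 6 reactive oxygen and high light genes, where 0.816% of all probe sets were called higher. TRY was chosen after its values were seen. TRY lost its call without each of the 5 mock arrays (1.39 to 2.07), and VTC4 without each but WT mock A (0.77 to 1.12). Of the table genes, GASA6, a gibberellin-regulated peptide, fell by 3.05 and PAL3, a phenylalanine ammonia-lyase, by 1.47, and both lost their call without any 1 of the 5 mock arrays (GASA6 -2.41 to -3.70, PAL3 -1.36 to -1.58).

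Across all 23 functional lists, 8 of 127 named probe sets were called higher and 3 lower, with a median of 0.17, where 0.816% and 1.11% of all probe sets were called in these directions and their median was 0.018. The lists were chosen with earlier results of these data known, so that these counts are a description. Calls were absent among the named members of ABA synthesis and breakdown (5 probe sets, median 0.01), jasmonate and wounding (6, 0.65), salicylic acid and defence (2, 0.15), the circadian clock (4, -0.02), flowering time (9, 0.22) and auxin, brassinosteroid and gibberellin response (13, 0.26). DFR, an enzyme of anthocyanin synthesis, had 2.7 (adjusted p = 0.069), and AOP3 had 3.89 ± 1.00 (adjusted p = 0.051). AOP3 was called without WT mock C (2.14, adjusted p = 0.030) and without WT mock A (5.24, adjusted p = 0.0016).

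The same genotypes were measured on 5 further arrays after ABA, whose log2 differences share no array with the mock comparison. The calls of both share a spread estimated over all 22 arrays, so that genes of low spread are favoured in both. Here 5.90% of all probe sets were called higher and 4.67% lower in ost1-2 ABA than in WT ABA, and 50.5% and 49.5% lay above and below 0. Of the 153 mock falls, 63 were also called lower (41.2%), 7 were called higher and 117 lay below 0 (76.5%), with a median of -0.76. Of the 45 falls beyond log2 2, 27 were called lower, none higher, and 44 lay below 0 (median -2.57). AT2G25510 had 2.4 and 3.44 in ost1-2 ABA, against 10.84, 11.25 and 10.34 in WT ABA, again with a wide gap. Of the 113 mock rises, 13 were also called higher (11.5%) and 23 lower (20.4%), and 43 lay above 0 (38.1%), with a median of -0.19. Falls were thus called lower again more often than all probe sets, while rises were called in both directions, more often lower than higher. With single arrays left out, 27 to 83 falls were called in both (30 and 27 without ost1-2 mock A and C, 38 and 35 without ost1-2 ABA D and G). Rises called in both numbered 2 and 1 without ost1-2 mock A and C, 7 and 5 without WT mock A and C, 6 and 7 without ost1-2 ABA D and G and 8 without WT ABA D.

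**Figure D4:**
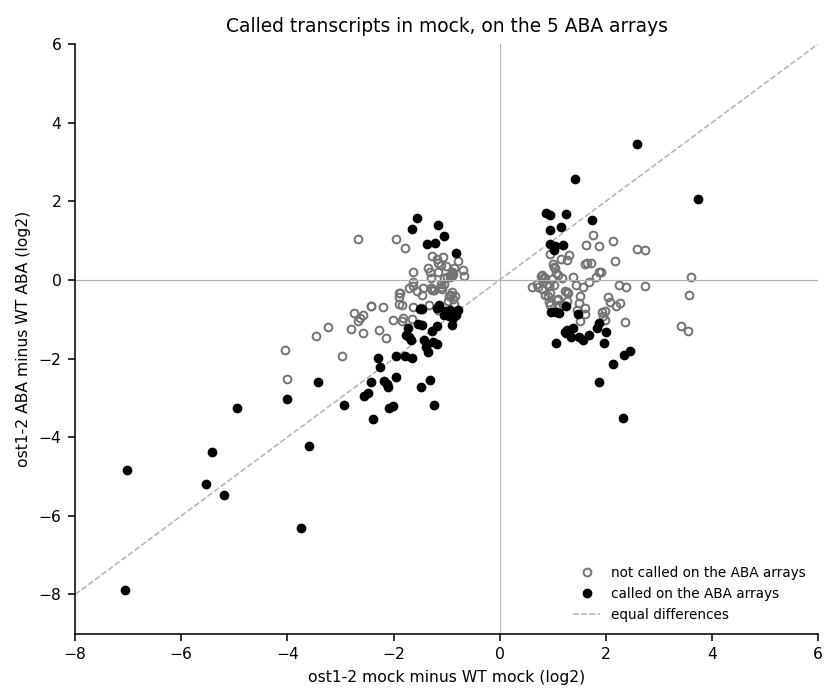
Log2 difference of the 254 called transcripts of a single gene between ost1-2 and WT in mock (horizontal) and on the 5 further ABA arrays (vertical), with filled points called on the ABA arrays. Large falls lie mostly below 0 on the ABA arrays, at varied distances from the dashed line of equal differences. AT1G66100 lies at -7.02 in mock and -4.82 on the ABA arrays. Rises spread above and below 0 with a median of -0.19 over all 113.

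Single WT ABA arrays set several of these values. AT1G66100 had 3.39 and 3.37 in ost1-2 ABA, against 10.65, 10.29 and 3.65 on WT ABA arrays D, E and G. The last array lay at the ost1-2 level, although all 3 WT mock arrays had 10.17 to 11.39. AT1G61190 had 2.71 and 2.39 in ost1-2 ABA, against 7.78, 7.16 and 2.47 in WT ABA, again with G low. LHCB4.2 was low on WT ABA E only (6.80, against 9.07 and 9.38 on D and G), as was TGG2 (5.17, against 10.26 and 11.90). CSA1 was low on D and E (2.86 and 3.14) and not on G (5.92). Of the 39 falls beyond log2 2 of a single nuclear gene, 15 lay below the midpoint of the mock groups on WT ABA G, 9 on D and 6 on E, against 38 and 39 on the ost1-2 ABA arrays. Of 140 falls of a single nuclear gene, 29 (20.7%) also lay far lower in ost1-2 ABA than in sal1-8, against 1.17% of those not called. Of 112 such rises, 5 (4.46%) lay far higher in ost1-2 ABA than in sal1-8, against 0.210% of those not called.

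Some genes kept both direction and call on the ABA arrays. MT1B had 4.94 and 5.40 in ost1-2 ABA, against 3.89, 2.71 and 2.76 in WT ABA (2.04 ± 0.27, adjusted p = 0.00017). AT5G17090 (3.46 ± 0.48), BLUS1, AT4G14480 (1.69 ± 0.20), VTC4 (1.27 ± 0.23) and TRY (1.53 ± 0.42) were higher there too, and ECS1 fell by 3.18 ± 0.29. Other genes changed side. LTI30 had 5.23 and 6.25 in ost1-2 ABA, against 6.89, 6.87 and 7.43 in WT ABA (-1.32 ± 0.32, adjusted p = 0.014), so that it was above WT in mock and below it after ABA. AT2G41190 had 6.82 and 5.41 in ost1-2 mock, against 3.6, 4.12 and 3.64 in WT mock, but 5.55 and 5.77 in ost1-2 ABA, against 9.70, 8.68 and 9.13 in WT ABA. AT2G28400 and AT4G33467 showed the same order. The mock call of AT2G41190 was lost without any 1 of the 5 mock arrays (1.62, adjusted p = 0.51, without ost1-2 mock A) and without either ost1-2 ABA array. Those of AT2G28400 and AT4G33467 were lost without ost1-2 mock A (1.92 and 1.65) and without WT mock F (2.32 and 2.39). AT2G28400 also lost its call without ost1-2 mock C (2.998) and AT4G33467 without WT mock A (2.16). The difference between genotypes was itself different between mock and ABA at 75 of the 113 rises, in the direction of the rise, and at 39 of the 153 falls in that of the fall, where 3.56% and 3.47% of all probe sets were called in these directions and 7.03% in either. These tests share the mock arrays with the choice of genes, so that both counts are favoured.

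Where ABA-responsive transcripts lay in ost1-2 mock was read from genes chosen on the 6 sal1-8 arrays. Their log2 differences share no array with the mock comparison. The calls of both share a spread estimated over all 22 arrays, so that genes of low spread are favoured in both. After ABA, 191 probe sets rose in sal1-8 (1.38%) and 101 fell (0.730%), or 2.11% in either direction. Of the 191, 29 were called higher in ost1-2 mock than in WT mock (15.2%) and 3 lower, 167 lay above 0, and the median was 0.64. Of the probe sets that were not called in sal1-8, 0.620% were called higher and the median was 0.015. The 3 called lower were AT4G06534, its neighbour AT4G06536 and a probe set of AT5G45480, chosen for mention after their values were seen. Of the 101 that fell, none was called higher, 10 were called lower (9.90%), and 79 lay below 0 (median -0.36). Named rises in the first set included AT1G70640, AT2G41190, AT2G28400, AT4G33467, LTI30, SWEET4, EXPA16 and WSD1, and WRKY29, TBL45 and AT2G41990 lay in the second.

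Array by array, the median of the 191 relative to the WT mock mean was 0.75 and 0.52 in ost1-2 mock, against 0.015, 0.11 and -0.15 in WT mock. The ranges did not overlap. It was 0.75 and 0.51 in ost1-2 ABA, against 1.75, 1.41 and 1.44 in WT ABA. The ost1-2 arrays thus had nearly the same medians in mock and after ABA, above WT mock and below WT ABA. On the ABA arrays 91 of the 191 were called lower in ost1-2 and 1 higher. The median of the 101 was -0.46 and -0.17 in ost1-2 mock, against 0.13, -0.10 and -0.089 in WT mock. The count of calls rested on single arrays: without ost1-2 mock A, 2 of the 191 were called higher, without ost1-2 mock C 18 and without WT mock F 14. The median difference of the 191 was 0.52 to 0.79 without single mock arrays. That of the 101 was -0.17 without ost1-2 mock A, -0.52 without ost1-2 mock C and -0.195 with array weights.

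**Figure D5:**
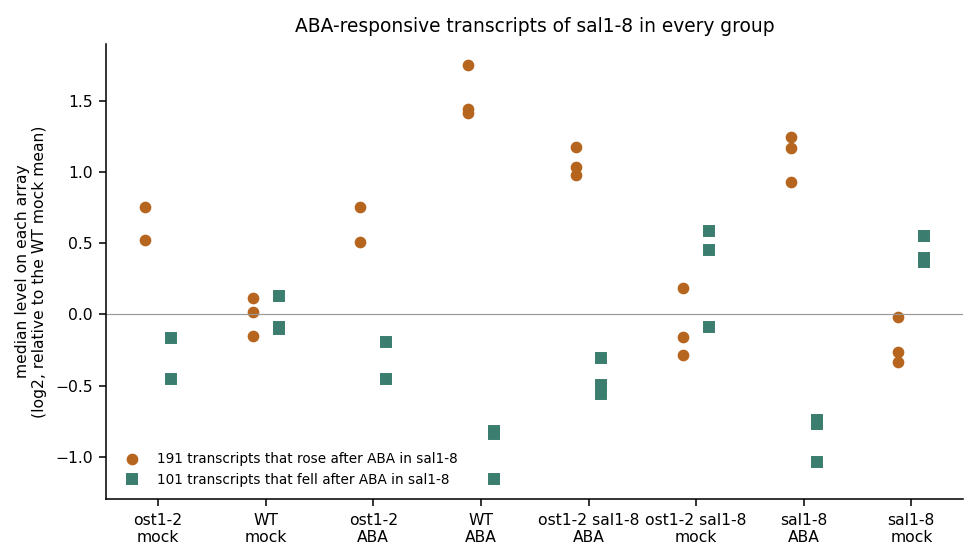
Median level on each array (log2, relative to the WT mock mean of each transcript) of the 191 transcripts that rose (circles) and the 101 that fell (squares) after ABA in sal1-8, in all 8 groups. The sal1-8 groups chose the transcripts, and the ost1-2 arrays lie at 0.51 to 0.75 for the first set in mock and after ABA alike, above WT mock and below WT ABA.

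Along the genome, falls made up 2.04% of tested probe sets on chromosome 4 (40 of 1965) and 1.7% on chromosome 2 (34 of 2004), against 1.12% on chromosome 1, 0.559% on chromosome 3 and 0.428% on chromosome 5. Rises ranged from 0.399% on chromosome 2 to 1.27% on chromosome 4. Within 5 genes of another fall lay 26 falls in 12 groups, and 10 rises lay so in 5 groups, counts that describe these calls and were set against no chance value. The groups given here were chosen after their values were seen. AT4G19500 and AT4G19510 fell by 2.49 and 1.96 and by 2.87 and 1.93 on the ABA arrays. AT4G06534 and AT4G06536 fell by 2.39 and 1.32, and by 3.55 and 2.56 on the ABA arrays. AT4G15680, AT4G15690 and AT4G15700 fell by 2.8, 2.2 and 1.47 in mock, and none was called on the ABA arrays. Without ost1-2 mock C, AT4G15700 had -0.81 (adjusted p = 0.38) and calls were also lost for AT4G15680 (-2.04), AT4G06534 (-1.79) and AT4G06536 (-1.11). AT4G15690, AT4G19500 and AT4G19510 stayed called without each array, AT4G06536 only without WT mock A (range -1.56 to -1.11), and AT4G15700 not without WT mock C (-1.37).

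Of the organelle transcripts, those of the chloroplast genome and nad1 were counted. Of 63 tested chloroplast transcripts, 1 was called higher and none lower, with a median of 0.033 and a range of -0.43 to 0.95. Over all probe sets 0.816% were called higher and 1.11% lower. Of 7 probe sets named nad1, a subunit of mitochondrial complex I, 1 was called (2.58 and 3.43 in ost1-2, against 4.90, 5.40 and 5.02 in WT, -2.10 ± 0.27), and the other 6 lay between -0.25 and 0.30. The probe sets of this gene thus disagree. On both sides of the threshold, TET10, a tetraspanin, was the last transcript inside (-0.87, adjusted p = 0.0495) and NRPE7 the first outside (-0.90, adjusted p = 0.0502).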

How the data were processed

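Leaf RNA was hybridised to Affymetrix Arabidopsis Gene 1.0 ST arrays. Per the study's methods, the deposited values are log2 intensities that the authors made from the scanned arrays by RMA, which corrects the background, quantile normalizes and summarizes probes into probe sets. The submitters' processing notes name oligo 1.28.0, R 3.1.0, limma 3.20.1, Affymetrix Power Tools and Partek. Of 38408 probe sets, 17481 are listed in the platform annotation, 16722 with a single gene and 759 with several. A further 524 were named only by the study's supplementary table of genes responding to ABA in WT, of which 1145 rows were held. Its values were not used. No array carried another sample's column (0), and no pair of arrays held identical values.

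Groups came from the labels. limma 3.58.1 in R 4.3.3 (lmFit, eBayes) was fitted to all 22 arrays with 1 coefficient for each of 8 groups, over the 13843 named probe sets with a highest group mean above log2 3, with Benjamini-Hochberg adjustment. Calls needed an adjusted p under 0.05 and a fold above 1.5. A second fit covered the 16357 probe sets of the whole array above log2 6 and served genes that only the supplementary table names. All adjusted p-values in the text are from these limma fits, and ± gives the limma standard error. Array signal has no counts, so that the number of arrays limits the precision. On simulated data with the same groups, 45% of changes of log2 1 and 91% of log2 2 were found among 13843 probe sets, with 6 unchanged ones called. The simulation gave each probe set the same normal spread in every group. In the data, WT mock arrays correlated less with each other than ost1-2 mock arrays, so that these shares may not hold there.

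Genes named are the 15 highest and 15 lowest calls of a single gene with arrays that do not overlap, list members, genes the study names and those nearest the threshold, beside genes said to be chosen later. The comparison, the lists and the rules were chosen with earlier results of these data known. Alternatives changed the filter, naming, probe sets per gene, fold minimum, arrays fitted, empirical Bayes, array weights, normalization, run as a block and single mock arrays. Leaving out single ABA arrays was added after seeing the data, as was the comparison of single WT arrays with ost1-2 ABA and sal1-8. A planned search of promoters for motifs was not run, as no sequences were used here. Tables and figures used Python 3.11.15, pandas 2.3.3 and matplotlib 3.10.9.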

Additional observations from a re-analysis of the deposited data

Results flagged for a closer look

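For 13 of the 15 largest rises and none of the 15 largest falls, the difference between ost1-2 and WT itself differed between mock and ABA, by limma's test of the mock difference minus the ABA difference (adjusted p under 0.05). This test shares the mock arrays with the choice of the genes, so that it is favoured. The mock difference exceeded the ABA difference by 5.83 log2 units at AT2G41190, 4.84 at AT5G52390, 4.58 at AT1G70640, 4.26 at AT2G28400, 4.25 at AT4G33467, 3.94 at AT1G65500, 3.53 at CHAT and 3.41 at AT5G44575. It did so by 2.87 at AT1G58225, 2.83 at AT5G03890, 1.98 at AT4G01390, 1.81 at AT4G01380 and 1.7 at MT1B. Of these 13, the mock call held without each mock array at AT1G58225, AT4G01390, AT4G01380 and MT1B, and was lost without at least 1 of them at the others, AT2G41190 losing it without any 1 of the 5. On the ABA arrays alone, 2 of the 15 rises were called higher and 3 lower in ost1-2, while 10 of the 15 falls were called lower. No group holds 4 or more arrays, so that single arrays were not tested for standing apart.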

How the results depend on the processing

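The 266 calls between ost1-2 mock and WT mock became 446 over every probe set of the whole array above log2 6 (222 rises in place of 113) and 76 when only the 5 arrays were fitted (25 rises and 51 falls in place of 153). Fitting fewer arrays leaves fewer degrees of freedom. Leaving out 1 array at a time, mock or ABA, gave 71 to 341 calls, 22 to 140 rises and 49 to 201 falls, lowest without ost1-2 mock A and highest without WT ABA D. Where only 1 ost1-2 array remained, it was assumed to vary like the other groups. Rises also called higher on the ABA arrays, 13 with all arrays, numbered 1 to 15 with single arrays left out, and falls also called lower, 63 with all arrays, 27 to 83, or 106 over the whole array. Of the transcripts that rose after ABA in sal1-8, the median of 0.64 was 0.45 with array weights and 0.93 with the run as a fixed replicate block. Of these, 29 were called higher in ost1-2 mock, against 64 over the whole array, 44 with array weights, 15 with the fixed block and 2 to 34 with single arrays left out. The fits of only the 5 or only the 11 mock arrays give no value for results that need ABA arrays. LEA18, -0.01 and not called, was 0.0049 after a further quantile normalization, 0.017 with the fixed block and -0.093 to 0.031 with single arrays left out. For the other changes the cause was not tested.

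By the letters of the sample numbers, deviations of ost1-2 and WT mock arrays correlated at 0.13 in run A and -0.066 in run C. For WT and sal1-8 mock arrays they correlated at -0.048, 0.18 and 0.27 in runs A, C and F. These values do not settle whether a run pairs its arrays. With the run as a replicate block, 210 calls were made with a fixed and 277 with a random block. Of all values of single genes under the alternatives, 1856 kept their direction and side of the threshold, 374 lost the call, 12 gained one and 4, all of LEA18, changed sign. The number of arrays, 2 against 3, limits the precision of these calls.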
